A study of Mus musculus with 4 samples.

Results

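The genes examined encode KMT2A (MLL), the common MLL fusion partners MLLT3 (AF9), MLLT1 (ENL), AFF1 (AF4), AFF4 and ELL, and the cofactors DOT1L, menin, PSIP1 and CDK9. They were chosen by name, and all 10 were found by their Ensembl identifiers among the 23552 genes of a table of FPKM values. FPKM are fragments scaled by exon length and by a factor for each library. The RNA came from c-Kit+ leukemic cells enriched from the bone marrow of moribund C57BL/6 mice with acute myeloid leukemia (AML) driven by the MLL-AF9 fusion. Control AML cells carried an eGFP vector (2 libraries, replicates 3 and 4) and SUV-OE cells overexpressed Suv39h1, an H3K9 methyltransferase, together with eGFP from the same kind of MSCV-based viral vector (2 libraries, replicates 2 and 3). Both groups therefore carried the fusion oncogene and eGFP, had been sorted for eGFP and transplanted into irradiated wild-type recipients, and were sequenced in the same RNA-seq batch. The study used young adult female mice, and the labels do not say whether each library came from a separate animal, so the p-values measure only the spread between these libraries. The question here was whether raised Suv39h1 goes with a different level of the machinery on which the fusion protein depends.

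KMT2A is a histone H3 lysine 4 methyltransferase that is tethered to chromatin by menin and PSIP1 (LEDGF) and keeps HOX genes active in blood progenitors. In MLL leukemia its N-terminal portion, which includes a CXXC domain that binds unmethylated CpG, is joined to a partner protein that normally works in transcription elongation. The partners bring in either DOT1L, the H3 lysine 79 methyltransferase, or the super elongation complex, in which AFF scaffolds hold ELL and the CDK9 kinase of P-TEFb that releases paused RNA polymerase II.

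The sequences just upstream of the starts of Kmt2a, Mllt3 and Aff4 are shown because these were the members whose SUV-OE libraries each exceeded the 2 controls, and because CpG is the letter pair to which the CXXC domain of KMT2A binds. Each is the 240-base stretch that ends 11 bases before the RefSeq transcript start on GRCm38.p6, on the gene's own strand, with every CG in capitals. The Kmt2a stretch is chr9:44881300-44881539 on the minus strand, the stretch of the first Mllt3 start is chr4:88033418-88033657 on the minus strand, and the Aff4 stretch is chr11:53350517-53350756 on the plus strand.
Kmt2a: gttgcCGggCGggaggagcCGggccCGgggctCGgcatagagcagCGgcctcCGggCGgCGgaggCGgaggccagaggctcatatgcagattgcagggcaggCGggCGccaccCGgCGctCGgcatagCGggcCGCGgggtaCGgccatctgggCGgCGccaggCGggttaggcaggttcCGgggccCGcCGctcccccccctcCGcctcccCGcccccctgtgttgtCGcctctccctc
Mllt3: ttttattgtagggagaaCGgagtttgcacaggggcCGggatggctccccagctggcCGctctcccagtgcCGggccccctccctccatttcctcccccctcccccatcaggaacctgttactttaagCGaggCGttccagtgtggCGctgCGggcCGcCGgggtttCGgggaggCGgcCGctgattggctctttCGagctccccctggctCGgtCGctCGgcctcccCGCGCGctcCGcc
Aff4: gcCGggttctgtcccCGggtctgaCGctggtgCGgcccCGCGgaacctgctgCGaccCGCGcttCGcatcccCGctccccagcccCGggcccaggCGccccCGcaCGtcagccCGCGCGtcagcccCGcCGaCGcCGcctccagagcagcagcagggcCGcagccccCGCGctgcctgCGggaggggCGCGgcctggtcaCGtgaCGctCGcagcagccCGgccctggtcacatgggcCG

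Kmt2a had 28 CpG in this stretch, Mllt3 had 21 and Aff4 had 33, against a median of 5 over the 32851 promoters of the RefSeq table. Of all promoters of that length, 6.59% held at least as many CpG as Kmt2a, 14.8% as many as Mllt3 and 3.33% as many as Aff4. High counts were not particular to these 3 genes, since the stretches of Dot1l, Mllt1 and Cdk9 held 43, 34 and 31. The second Mllt3 start and the 3 Men1 starts were the low ones, with 3 and with 8 to 9 CpG. The table had windows for 9 of the members, without Psip1. No methylation or binding was measured at these sites here, so the counts describe the sequence alone.

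The libraries were of similar depth, with 20085720 to 23561091 reads recovered from the steps of the FPKM values. Pearson correlations of log2(FPKM + 1) across tested genes were 0.970 between the control libraries, 0.985 between the SUV-OE libraries and 0.953 to 0.966 between the groups. Suv39h1 itself had FPKM of 12.4 and 12.4 in control cells against 75.3 and 81.2 in SUV-OE cells (log2 fold change 2.56, SE 0.11, limma adjusted p = 0.00866), so the libraries followed their labels. The c-Kit receptor used for enrichment was present throughout, with Kit FPKM of 20.4 and 19.2 in control cells against 28.6 and 25.4 in SUV-OE cells. Markers of some other cell types moved with the groups. Over all tested genes, 25.4% were higher in both SUV-OE libraries, 28.4% were lower in both and 1.22% were called by the limma test described below. All 11 neutrophil markers were higher in both SUV-OE libraries, with a summed FPKM of 755 to 2395 in control and 6666 to 8113 in SUV-OE. Among them 1, Ltf, was called. Of 12 tested B-lymphoid markers 10 were likewise higher in both, with sums of 22.2 to 31.2 against 50.1 to 121. Sums of mast cell, basophil and eosinophil markers (107 to 162 against 210 to 262), of megakaryocyte markers (8.20 to 14.7 against 25.9 to 30.2) and of stromal and endothelial markers (26.6 to 32.8 against 71.7 to 81.7) were also separate. The first and last of these sums separated only with Cpa3 and Pecam1 included. Cpa3 had FPKM of 21.3 and 43.5 in control cells against 112 and 103 in SUV-OE cells. Of 7 tested markers in its list 4 were higher in both SUV-OE libraries and 1, Hdc, was lower in both. Pecam1 was called, at 16.7 and 23.3 in control against 70.3 and 64.1 in SUV-OE cells. The other of the 2 tested stromal and endothelial markers, Pdgfrb, had a log2 fold change of −0.22. The sums of erythroid, monocyte and T and NK cell markers overlapped between groups, although single markers did not. Of 9 tested monocyte markers 7 were higher in both SUV-OE libraries. Only 1, Ly6c2, the largest part of the sum, was lower in both, with FPKM of 281 and 545 in control cells against 229 and 269 in SUV-OE cells. All 9 tested erythroid markers had a positive log2 fold change, of which 4 were higher in both SUV-OE libraries and 5 overlapped. The summed c-Kit+ myeloid progenitor markers overlapped as well, at 3377 to 3454 against 2943 to 3605. No marker list was at 0, and the part of these other cells in the differences below was not tested. In bulk RNA a change in the share of a cell type and a change in RNA per cell cannot be told apart.

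Of the 9 members that passed the filter of a mean FPKM of at least 0.5, none was called different (limma on log2(FPKM + 1), Benjamini-Hochberg adjusted p below 0.05 with a log2 fold change of 1 or more in size), against 1.22% of the 13736 genes tested. With the fold limit left out it was also none, against 1.29%. With limma-voom on reads recovered from the FPKM none of the 10 members was called, against 4.68% of 14292 genes. At an unadjusted p below 0.05 there were 2 members, Kmt2a and Aff4, both higher in SUV-OE, where 10.3% of tested genes were past that limit upwards and 10.4% downwards. In both SUV-OE libraries 2 of the 9 were above both controls (25.4% of tested genes), 1 was below (28.4%) and 6 overlapped. The log2 fold change was positive for 5 of the 9 (47% of tested genes), with a median of 0.01 beside −0.02 over all tested genes. Mllt3, the remaining member, lay below the filter. These counts are close to the background, and the members are described one by one below.

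**Figure D1:**
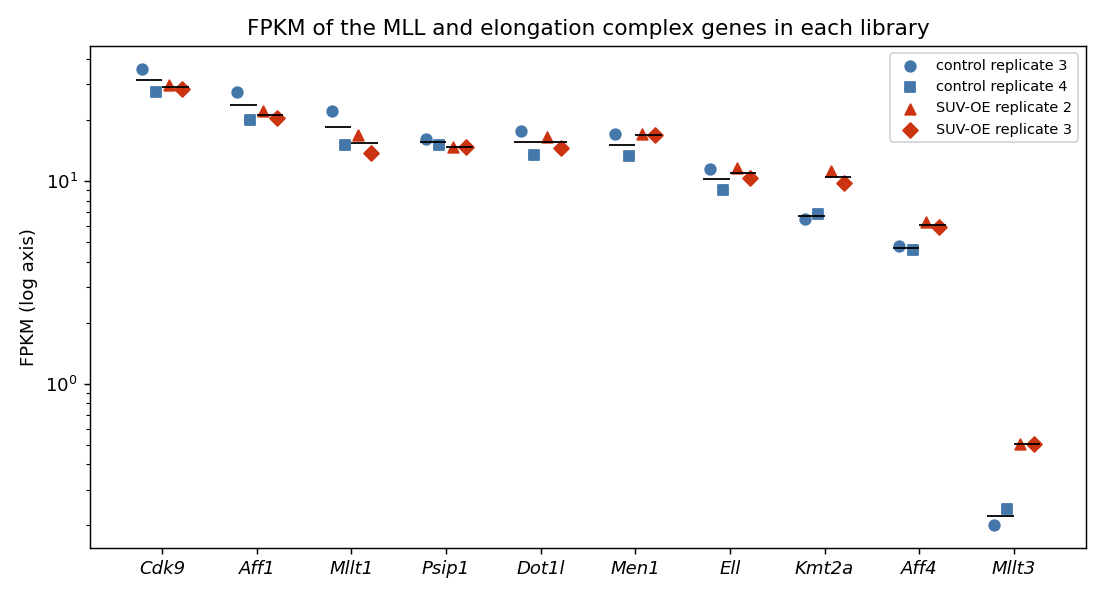
FPKM of each member (log axis) in the 4 libraries, with symbols for single libraries and short bars for the mean of each group of 2. Kmt2a, Aff4 and Mllt3 have both SUV-OE points above both control points, and for most other members control replicate 3 is the highest or nearly the highest point.

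Kmt2a (ENSMUSG00000002028, chr9:44803355-44881296 on mm10, minus strand, 37 exon blocks) encodes the methyltransferase itself. Its FPKM was 6.49 and 6.88 in control cells against 11.1 and 9.83 in SUV-OE cells, from 2103 and 1934 recovered reads against 3295 and 2912. The groups did not overlap, and the gap between them was larger than the difference within either. The mean in SUV-OE cells was 1.57 times that in control, with a log2 fold change of 0.58 (SE 0.12, 95% confidence interval 0.26 to 0.89). Across all genes this gave a limma adjusted p of 0.107. With limma-voom on the recovered reads the log2 fold change was 0.65 and the adjusted p 0.0418, over a range of 0.0308 to 0.661 among all alternatives, and it was positive in 13 of 13. At any fold change Kmt2a was the only member with a limma-voom adjusted p below 0.05, against 4.35% of the 14292 genes upwards and 1.84% downwards. Whether Kmt2a passed an adjusted p of 0.05 therefore depended on the model, its log2 fold change stayed below 1 in every fit, and its direction was the same in every alternative run. An antisense transcript, AC061963.1, overlaps 378 exon bases of Kmt2a, and without stranded counting its reads cannot be told apart from those of Kmt2a.

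Men1 (ENSMUSG00000024947, chr19:6334979-6340891, plus strand) encodes menin, which binds the N-terminus of KMT2A and is retained by MLL fusions. Its FPKM was 17.0 and 13.2 in control cells against 17.1 and 16.8 in SUV-OE cells. The groups overlapped, as the higher control library lay between the SUV-OE libraries, and the log2 fold change was 0.17 (95% confidence interval −0.23 to 0.56, limma adjusted p = 0.576).

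Psip1 (ENSMUSG00000028484, chr4:83455680-83486459, minus strand) encodes the chromatin reader that links menin and KMT2A to transcribed genes. Its FPKM was 16.1 and 15.0 in control cells against 14.7 and 14.7 in SUV-OE cells. It was the one tested member with both SUV-OE libraries below both controls, but by a log2 fold change of only −0.08 (95% confidence interval −0.36 to 0.20, limma adjusted p = 0.712). Psip1 shares 483 exon bases, 9.50% of its exon length, with Snapc3 on the opposite strand. Among the 3 genes of the chromatin-tethering unit, Kmt2a was thus the one with a separation beyond its replicate spread.

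Mllt3 (ENSMUSG00000028496, chr4:87769925-88033364, minus strand) encodes AF9, a YEATS-domain reader of acylated histones and the partner in the fusion that drives these leukemias. It had the lowest level of the members in every library, with FPKM of 0.201 and 0.242 in control cells against 0.502 and 0.501 in SUV-OE cells. These values rest on 47 and 49 recovered reads in control cells against 107 and 107 in SUV-OE cells. The groups did not overlap, as was the case in that direction for 25.7% of all genes in the table, and the mean FPKM ratio was 2.26. With no filter on low values the limma log2 fold change on the log2(FPKM + 1) scale, which compresses low values, was 0.30 (unadjusted p = 0.0093, a limit of 0.05 that 10.1% of 23552 genes passed upwards; adjusted p = 0.169). On recovered reads limma-voom gave 1.18 (SE 0.27, 95% confidence interval 0.54 to 1.83, adjusted p = 0.0520). With total reads as the depth, an alternative chosen after seeing the data, it gave 1.28 with an adjusted p of 0.0374. Over these 3 fits the adjusted p ran from 0.0374 to 0.169. The table has no separate entry for the MLL-AF9 transcript, so reads of the fusion that align to Kmt2a or Mllt3 are not separated from those of the endogenous genes.

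Mllt1 (ENSMUSG00000024212, chr17:56892611-56935415, minus strand) encodes ENL, the close relative of AF9 with the same YEATS reader. Its FPKM was 22.1 and 15.0 in control cells against 16.9 and 13.8 in SUV-OE cells. The control libraries differed more from each other than the groups did, with a log2 fold change of −0.24 (95% confidence interval −0.81 to 0.33). The FPKM ratio of Mllt1 to Mllt3 was 110 and 62.0 in control cells against 33.7 and 27.5 in SUV-OE cells. ENL transcripts were therefore far more abundant than AF9 transcripts in every library, and the ratio was lower in both SUV-OE libraries.

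Dot1l (ENSMUSG00000061589, chr10:80755206-80795461, plus strand) encodes the H3 lysine 79 methyltransferase that AF9 and ENL recruit. Its FPKM was 17.6 and 13.4 in control cells against 16.5 and 14.6 in SUV-OE cells, so both SUV-OE libraries lay between the controls. The log2 fold change was 0.01, with a 95% confidence interval of −0.42 to 0.45 that still allows a difference in either direction.

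Aff4 (ENSMUSG00000049470, chr11:53350833-53421830, plus strand) encodes the scaffold of the super elongation complex. Its FPKM was 4.77 and 4.57 in control cells against 6.28 and 5.90 in SUV-OE cells. The groups did not overlap, and the mean in SUV-OE cells was 1.30 times that in control. The log2 fold change was 0.32 (SE 0.12, 95% confidence interval 0.02 to 0.62) with a limma adjusted p of 0.222, so Aff4 did not pass the threshold. It was positive in 13 of 13 alternatives, at 0.28 to 0.48, and its adjusted p ran from 0.102 to 0.832.

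Aff1 (ENSMUSG00000029313, chr5:103692374-103855322, plus strand) encodes AF4, the related scaffold that is the partner in the MLL-AF4 fusion. Its FPKM was 27.4 and 19.9 in control cells against 22.1 and 20.4 in SUV-OE cells. The SUV-OE libraries lay between the controls, with a log2 fold change of −0.13 (95% confidence interval −0.60 to 0.34). The FPKM ratio of Aff1 to Aff4 was 5.74 and 4.35 in control cells against 3.52 and 3.46 in SUV-OE cells, so Aff1 remained the more abundant scaffold transcript in all 4 libraries.

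Ell (ENSMUSG00000070002, chr8:70539457-70592858, plus strand) encodes an elongation factor that suppresses polymerase pausing. Its FPKM was 11.4 and 9.01 in control cells against 11.5 and 10.4 in SUV-OE cells. Cdk9 (ENSMUSG00000009555, chr2:32705784-32713076, minus strand) encodes the kinase of P-TEFb, with FPKM of 35.8 and 27.4 in control cells against 29.7 and 28.3 in SUV-OE cells. The groups overlapped for both genes. The log2 fold change was 0.10 for Ell (95% confidence interval −0.30 to 0.49) and −0.11 for Cdk9 (95% confidence interval −0.53 to 0.31).

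**Figure D2:**
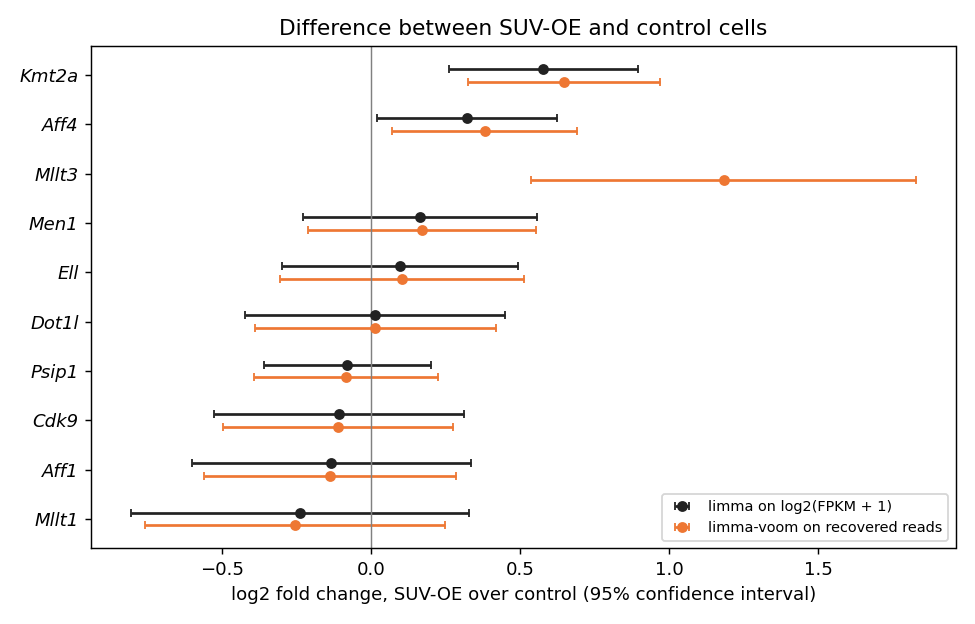
Log2 fold change of SUV-OE over control for each member, with 95% confidence intervals, from limma on log2(FPKM + 1) in black and from limma-voom on recovered reads in orange. The intervals of Kmt2a and Aff4 lie above 0 in both fits, that of Mllt3 in limma-voom alone as it was not tested in the other fit, and those of the other 7 members span 0.

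Most members differed in the same direction between the control libraries, but by unequal amounts. Control replicate 3 was higher than control replicate 4 for 8 of the 10 members (49.8% of tested genes), and the log2 difference was 0.53 for Mllt1, 0.44 for Aff1 and 0.31 to 0.37 for Cdk9, Dot1l, Men1 and Ell. The median absolute log2 difference over tested genes was 0.22 between the controls and 0.13 between the SUV-OE libraries. For Kmt2a, Aff4 and Mllt3 the controls differed by −0.07, 0.05 and −0.05.

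FPKM is scaled by exon length, which allows levels of different members to be compared. In control cells the order of mean FPKM (± SD, n = 2) ran from Cdk9 (31.6 ± 5.90) and Aff1 (23.6 ± 5.28) through Mllt1 (18.5 ± 4.99), Psip1 (15.6 ± 0.77), Dot1l (15.5 ± 2.99), Men1 (15.1 ± 2.67) and Ell (10.2 ± 1.69) to Kmt2a (6.68 ± 0.276), Aff4 (4.67 ± 0.136) and Mllt3 (0.222 ± 0.0287). From Aff1 to Men1 each neighbour in this order overlapped the next in range, so their ranks are not resolved. In SUV-OE cells Cdk9 and Aff1 again led, with means of 29.0 and 21.2. Men1 had the next mean, 16.9, and Mllt1 had 15.4, with overlapping ranges between Dot1l and Mllt1, between Mllt1 and Psip1, and between Ell and Kmt2a. Kmt2a, separate from Ell in control cells, thus overlapped it in SUV-OE cells, and it stood at the percentile of 50 among tested genes in control and 61.9 in SUV-OE cells. Mllt3 was at the percentile of 0.903 and of 2.

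Kmt2a, Aff4 and Mllt3 have long exon lengths, of 16670, 13450 and 12004 bases, and the fold change of all genes varied with exon length. Of the 10 classes of tested genes by length, the shortest had a median log2 fold change of 0.09 and the third the lowest, −0.12. The median was then higher in longer classes, and the longest 10%, which holds Kmt2a, Aff1 and Aff4, had 0.07, with 38.2% of its genes higher in both SUV-OE libraries and 19.1% lower. Among the 562 tested genes with exons at least as long as those of Mllt3 the median was 0.10, with 45.2% higher in both and 15.7% lower. A larger log2 fold change than that of Kmt2a was seen in 26 of these 562 genes (4.63%) and in 7.84% of all tested genes, and than that of Aff4 in 94 (16.7%) and 16.8%. Separation of the groups upwards was therefore common among genes of this length, whereas few of them differed as much as Kmt2a. The part of length in the values of these genes was not tested.

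**Figure D3:**
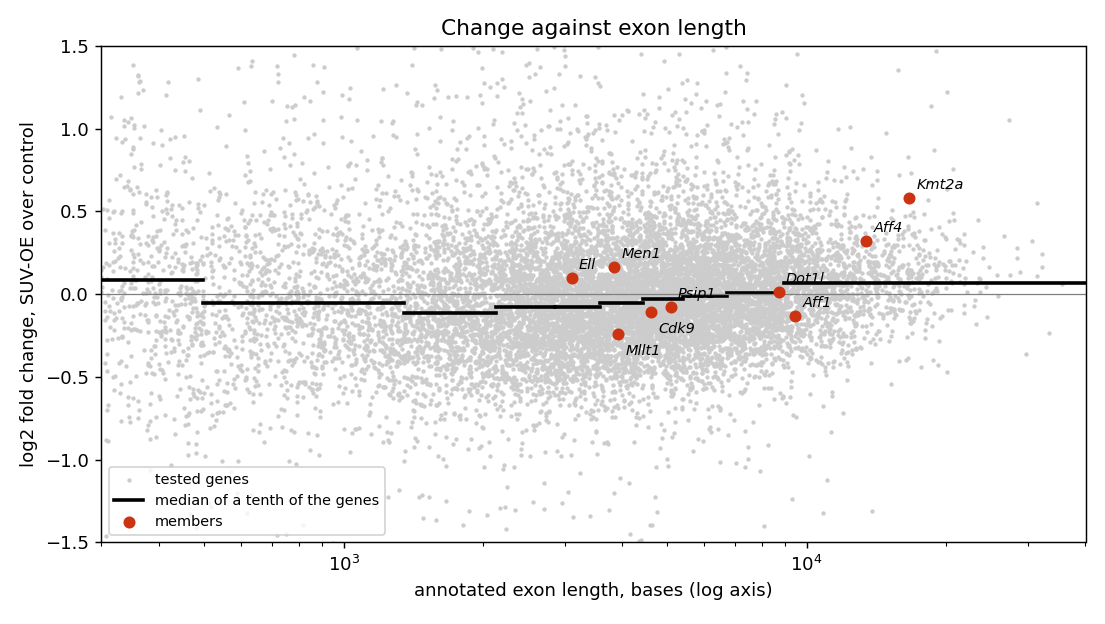
Log2 fold change of SUV-OE over control against annotated exon length (log axis), with tested genes in grey, members in red and black bars at the median of each 10% of the genes by length. The longest 10% has a median of 0.07, Kmt2a and Aff4 lie above it and Aff1 below it, and 1015 tested genes fall outside the axes.

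The partners of the members were then described by list. The counts at an unadjusted p below 0.05 are to be read against the 10.3% of all tested genes past it upwards and the 10.4% downwards, and differences of a list from other genes were not tested. The core subunits and relatives of KMT2A had 15 tested genes, of which none was called by limma, 2 were higher and 1 lower at an unadjusted p below 0.05, and the median log2 fold change was −0.04. Ash2l, a core subunit of the KMT2A complex, had FPKM of 33.1 and 31.8 in control cells against 43.9 and 45.8 in SUV-OE cells (log2 fold change 0.45, limma adjusted p = 0.135). Tasp1, the protease that cleaves KMT2A, had FPKM of 6.01 and 5.91 in control cells against 3.97 and 4.59 in SUV-OE cells (log2 fold change −0.40, limma adjusted p = 0.186). Neither passed the threshold, although the groups did not overlap for either gene. The paralogs of Kmt2a, chosen for display after their values were seen, gave log2 fold changes of 0.44 for Kmt2c, 0.34 for Kmt2d, 0.31 for Kmt2e and 0.12 for Kmt2b, with limma adjusted p of 0.167, 0.266, 0.321 and 0.665. The other related methyltransferases, Setd1a and Setd1b, gave −0.08 and 0.18. The SUV-OE libraries were above the controls for Kmt2c, Kmt2d and Kmt2e, as for 25.4% of tested genes and 38.2% of the 10% with the longest exons, to which these 3 belong. The groups overlapped for Kmt2b, Setd1a and Setd1b, of which Kmt2b and Setd1b also belong to the 10% with the longest exons. No gene of this list had a limma-voom adjusted p below 0.05. The FPKM ratio of Kmt2d to Kmt2a was 3.23 and 2.51 in control cells against 2.31 and 2.36 in SUV-OE cells.

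Of 19 genes of the super elongation complex and P-TEFb 17 were tested, and by limma none was called, 3 were higher and none lower at an unadjusted p below 0.05, with a median log2 fold change of −0.01. The highest was Aff3, another AFF scaffold and fusion partner, with FPKM of 0.414 and 0.694 in control cells against 2.96 and 2.30 in SUV-OE cells. Its log2 fold change was 1.22 (SE 0.19) with a limma adjusted p of 0.0654, and limma-voom gave 2.28 with an adjusted p of 0.0111. The FPKM ratio of Aff4 to Aff3 was 11.5 and 6.59 in control cells against 2.12 and 2.57 in SUV-OE cells, so that Aff4 was higher than Aff3 in every library but by a smaller factor in SUV-OE cells. The lowest was Larp7, a subunit of the 7SK complex that holds P-TEFb inactive, with a log2 fold change of −0.26 (limma adjusted p = 0.426). The ratio of Ell to its paralog Ell2 was 2.77 and 1.95 in control cells against 1.97 and 1.83 in SUV-OE cells.

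Of the 8 tested genes listed for the DOT1L complex none was called by limma, and 1 was past an unadjusted p of 0.05, upwards. This was Mllt6 (AF17), a fusion partner that binds DOT1L, with FPKM of 1.94 and 2.04 in control cells against 3.83 and 3.40 in SUV-OE cells (log2 fold change 0.62, limma adjusted p = 0.110, limma-voom adjusted p = 0.0346). The lowest was Ruvbl1, an AAA+ ATPase, at −0.20 (limma adjusted p = 0.403). The FPKM ratio of Mllt10 (AF10) to Mllt6 was 8.39 and 7.46 in control cells against 4.49 and 4.46 in SUV-OE cells. Of the 98 companion genes tested, Mllt6 had the pattern nearest to that of Kmt2a over the 4 libraries, with a root mean square difference of 0.0271 between their centred log2(FPKM + 1) values. The nearest to Aff4 was the fusion partner Kif2a (0.0435), and the nearest to Mllt1 was Polr2a (0.0581), the largest RNA polymerase II subunit.

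The list of 18 general elongation genes held the PAF1, DSIF and NELF complexes, other elongation factors and chaperones, and Polr2a. The log2 fold change was positive for 4 and negative for 14, where 47% of all tested genes were positive. In both SUV-OE libraries 6 of them were below both controls (28.4% of tested genes), the median was −0.10, and the difference from other genes was not tested. None was called by limma, none had a limma-voom adjusted p below 0.05, and 1 was past an unadjusted limma p of 0.05. This was Wdr61, a PAF1 complex subunit, at −0.45 (limma adjusted p = 0.195), and the highest was Nelfb at 0.09.

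Of 29 other fusion partners of KMT2A 23 were tested, of which 18 had a positive and 5 a negative log2 fold change (47% of all tested genes were positive), with a median of 0.10, and none was called by limma. Foxo4 was the highest, whose FPKM averaged 8.20 in control and 12.9 in SUV-OE cells (log2 fold change 0.60, limma adjusted p = 0.0829, limma-voom adjusted p = 0.0425). Gas7 was the lowest, with FPKM of 9.33 and 7.62 in control cells against 5.25 and 5.29 in SUV-OE cells (log2 fold change −0.59, limma adjusted p = 0.126, limma-voom adjusted p = 0.0469). Of the 23, these 2 were past an unadjusted limma p of 0.05. By limma-voom 28 of the list were tested, and 2 had an adjusted p below 0.05 upwards and 1 downwards, against 4.35% and 1.84% of all genes. Besides Foxo4 and Gas7 this was Arhgef12, a guanine nucleotide exchange factor, named after its values were seen. Arhgef12 lay under the FPKM filter, with FPKM of 0.157 and 0.141 in control cells against 0.484 and 0.478 in SUV-OE cells (limma-voom log2 fold change 1.68, SE 0.28, adjusted p = 0.0219).

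Among the 17 target genes of MLL fusion proteins reported here 1 was called by limma, upwards, against 0.815% of tested genes (0.408% downwards). At any fold change limma-voom gave an adjusted p below 0.05 for 4 of them upwards and 1 downwards, against 4.35% and 1.84% of all genes. Eya1, a transcriptional coactivator, rose from FPKM of 1.93 and 2.30 to 15.1 and 12.8 (log2 fold change 2.26, SE 0.14, limma adjusted p = 0.0146). The lowest of these genes was Flt3, a receptor tyrosine kinase of blood progenitors, with FPKM of 10.3 and 9.08 in control cells against 6.2 and 4.18 in SUV-OE cells (log2 fold change −0.81, limma adjusted p = 0.133, limma-voom adjusted p = 0.0466). The others past the limma-voom threshold, besides Eya1, were the transcription factor Mef2c, the chromatin organizer Satb1 and the survival gene Bcl2, named after their values were seen. Their limma-voom log2 fold changes were 3.54, 3.02 and 1.31 (adjusted p = 0.00559, 0.00326 and 0.0181), and their limma adjusted p were 0.0688, 0.0510 and 0.0920. At an unadjusted p below 0.05 there were 4 higher and 1 lower, and the median log2 fold change was 0.18. Of the 4, Mef2c and Satb1 passed the FPKM filter only through the SUV-OE group where they are high, so neither the count nor the median is support for a direction of the list. The largest absolute log2 fold change among the tested members, 0.58 for Kmt2a, was thus smaller than that of Eya1.

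**Figure D4:**
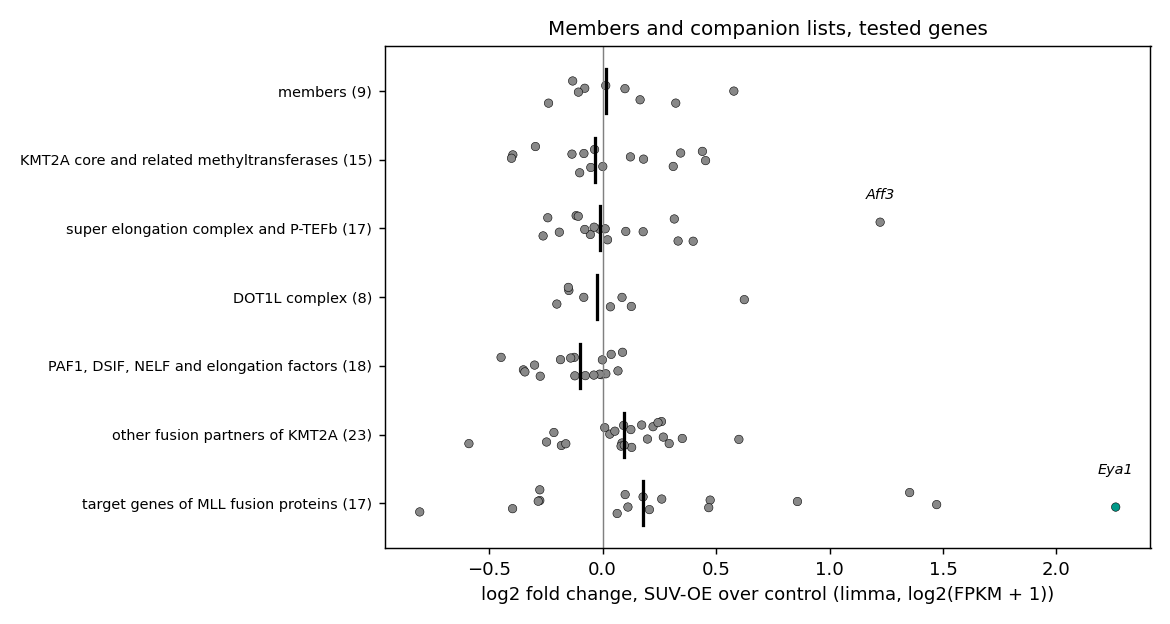
Log2 fold change of SUV-OE over control of the tested members and of the tested genes of each companion list, with the number tested in brackets, a black bar at each median and the called gene in green. The medians lie between −0.10 and 0.18, and the called gene is Eya1 among the fusion targets.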

How the data were processed

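The series supplied 1 table of FPKM values that the authors deposited for the 4 libraries of RNA-seq batch 2. Libraries were made with a TruSeq RNA kit (v2), and per the labels reads were processed with CASAVA 1.8 and TopHat2 and aligned to mm10, with FPKM from Cufflinks per the study's methods. FPKM divides by exon length and by a factor per library, so depth is not stated. Values were whole multiples of 1 read in all 4 libraries (tolerance 0.01) for 18498 of 23552 genes (78.5%) with GENCODE M21 exon lengths, which gave the recovered reads. A further 114 genes had no match in GENCODE M21, and values of Mllt1, Ell and Men1 were not whole at the annotated length. A count of 3 reads on 1 kb of exon equals FPKM of 0.154 to 0.178.

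The test was limma 3.58.1 (R 4.3.3) with an intensity trend on log2(FPKM + 1), for genes whose mean FPKM reached 0.5, comparing 2 SUV-OE with 2 control libraries, 2-sided, with Benjamini-Hochberg adjustment over 13736 genes. Fold changes on this scale understate those of low genes. Genes were called at an adjusted p below 0.05 with a log2 fold change of 1 or more in size. Alternatives were a pseudocount of 0.1, a minimum FPKM of 1 or none, quantile and median-of-ratios scaling, limma without the trend or with a robust fit, limma-voom on recovered reads (rounded, mean of at least 10, with the authors' scaling factor), and leaving out each library. The scripts were tested on simulated data.

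All members were named, with Suv39h1, and in each companion list every gene with a limma adjusted p below 0.05 and the tested genes with the highest and lowest log2 fold change, as well as the companion nearest to each of the 3 members with the largest changes. The members and lists were chosen with earlier results of these data known. A gene of the list of fusion targets is not reported here and is left out of that list’s counts. Further lists held markers of erythroid cells (summed FPKM 14.8 to 140 in control, 69.7 to 100 in SUV-OE), monocytes (372 to 661, 388 to 420) and T and NK cells (75.7 to 115, 78.5 to 84.9). Promoter sequences came from RefSeq on GRCm38.p6. The kit is not stated to keep strand, and the species of the fusion's coding sequence is not given in the sources used here.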

Additional observations from a re-analysis of the deposited data

How the results depend on the processing

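No paired analysis was possible because replicate number 3 is the single number that control and SUV-OE have in common. Kmt2a and Aff4 kept a positive log2 fold change in all 13 alternatives, Kmt2a at 0.50 to 0.74. Of 120 values of single members under alternatives, 107 kept their direction and side of the threshold, 9 turned direction, 2 newly passed the threshold (Kmt2a in both limma-voom fits) and 2 moved (Mllt3 in the same fits). None of the values that turned had an adjusted p below 0.05. Cdk9 was 0.0148 with quantile scaling and Psip1 was 0.0123 with limma-voom and total reads as depth. When single libraries were left out, Mllt1 ran from −0.502 to 0.0255, Aff1 from −0.352 to 0.0886, Cdk9 from −0.292 to 0.0794, Ell from −0.0559 to 0.253, Men1 from −0.0048 to 0.335 and Dot1l from −0.172 to 0.199. The turns came without control replicate 3 for Mllt1, Aff1 and Cdk9, without control replicate 4 for Ell, Men1 and Dot1l, and without SUV-OE replicate 2 for Dot1l (−0.0702).

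No member was called except 1, Mllt3, with limma-voom and total reads as depth, a setting chosen after seeing the data that put the median of all genes at 0.08, against −0.01 for limma-voom with the authors' factor. The median log2 fold change of the tested members ran from −0.13 to 0.20 when single libraries were left out. The count of all genes called, 168, became 669 with limma-voom and 772 with total reads as depth. With no filter limma called 0 (4177 at an unadjusted p below 0.05). Leaving out 1 library gave 0 to 0 (3156 without control replicate 3, 3895 without control replicate 4, 1146 without SUV-OE replicate 2 and 1263 without SUV-OE replicate 3 at an unadjusted p below 0.05), where the lone library of a group is assumed to vary like the other group. Mllt3 stayed under the filter in the fits that left out a library and has no value there. With 2 libraries a group, the intervals of 7 tested members span 0, and smaller differences in either direction could not be resolved.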
